A study of Homo sapiens with 6 samples.

Results

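The nucleosome remodeling and deacetylase (NuRD) complex was followed through 10 of its subunit genes, CHD3, CHD4, MTA1, MTA2, MTA3, MBD2, MBD3, GATAD2A, GATAD2B and RBBP4. They were taken by gene symbol from tables of 60640 gene identifiers, and all 10 were among the 12652 genes with enough RNA to be tested. The RNA came from MOLT-4, an established human cell line of T-cell acute lymphoblastic leukemia, and was sequenced as polyadenylated RNA. The 3 wild type libraries were made from the control of a CRISPR knockout, and the 3 libraries labelled IK-KO from MOLT-4 cells edited by CRISPR-Cas in IKZF1, which encodes IKAROS. Both groups grew in the same serum-supplemented medium, and the labels give no other treatment. The comparison asks which transcripts of the complex differ between these cells.

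NuRD joins a pair of enzymatic activities. A CHD ATPase slides nucleosomes, and the histone deacetylases HDAC1 and HDAC2 remove acetyl groups from histone tails. MTA proteins form the scaffold that holds the deacetylases, RBBP proteins bind histones, MBD2 and MBD3 belong to the methyl-CpG-binding family, and GATAD2 proteins bridge the MBD subunit to the CHD ATPase. In lymphocytes IKAROS is known to bind NuRD and to be found with it at chromatin.

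IKZF1 itself was examined first. Its level was 134, 124 and 105 FPKM in wild type replicates 1 to 3 and 207, 259.6 and 207 FPKM in IK-KO-labelled libraries (log2 change 0.89, limma adjusted p = 0.00295). FPKM is a fragment count scaled by transcript length and by library depth, so levels can be compared between genes. The targeted gene was thus higher, not lower, in all 3 IK-KO-labelled libraries. An RNA level does not tell edited from unedited transcripts, so it cannot decide whether the knockout holds. The study states that PCR and a western blot were used to check the knockout, and shows a blot of a pair of knockout clones; these were not analysed here, and the labels do not say which clone was sequenced. Every direction below is one between libraries as labelled. The study states that the edited line and its control were bought, so differences between the lines other than the edit cannot be told apart from it. Nothing states that the replicates are separate cultures, so p-values measure only the spread between these libraries, which may be technical. The FPKM of a library summed to between 699352 and 738051. All 12 T-lineage markers were tested and 10 of them were called, 5 higher and 5 lower. The 12 summed to 1853 to 1940 FPKM in wild type and 1928 to 2140 FPKM in IK-KO-labelled libraries. These sums hide large changes of single markers. CD2 was at a mean of 61.5 FPKM in wild type and 5.14 FPKM in IK-KO-labelled libraries. CD247 was at 66.0 and 246 FPKM in turn. The summed B-lineage, myeloid, erythroid and epithelial or stromal markers each stayed at or below 3.66 FPKM in every library, and CD33, HBB, ALAS2, EPCAM and COL1A2 were listed at 0 throughout. The part of the T-lineage differences in the results below was not tested.

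Of the 10 subunits, 3 were higher in IK-KO-labelled libraries (CHD4, MTA3 and RBBP4) and 1 was lower (CHD3). A gene is called when its adjusted p in limma, which models log2(FPKM + 1) over all tested genes, is under 0.05. Because 1 is added, this scale understates changes at low FPKM. The members' share of calls was 40%, beside 19.9% of all tested genes (10.1% called higher and 9.75% called lower). Among genes with a mean of at least 10 FPKM, the range that holds all members, 22.7% were called. The highest and lowest library did not cross between groups in 7 of 10 members, beside 39.0% of all tested genes and 41.7% of those with at least 10 FPKM. With 10 genes chosen with earlier results known, these shares are a description only. The median log2 change of the members was 0.19 beside 0.02 for all tested genes, and 8 of 10 means were higher in IK-KO-labelled libraries. Their summed FPKM was 774, 816 and 775 in wild type and 899, 911 and 883 in IK-KO-labelled libraries, a ratio of the group means of 1.14. The sums of the groups did not overlap. RBBP4 and CHD4 gave the largest differences of group means, 55.8 and 27.5 FPKM, so the sum leans on these genes.

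**Figure D1:**
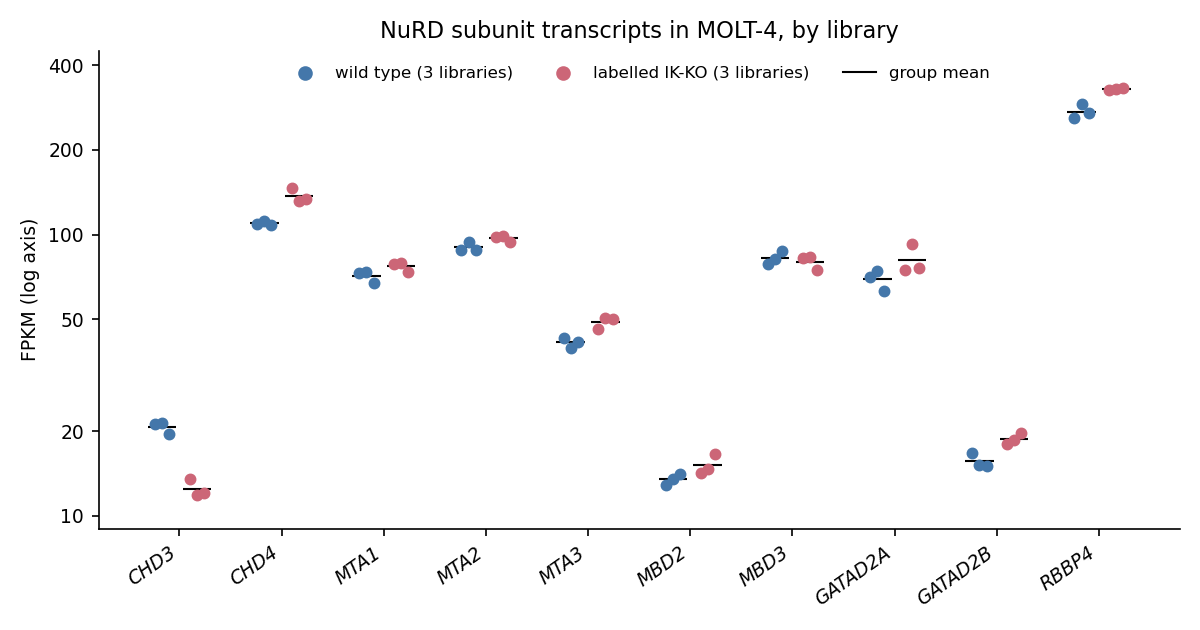
FPKM of the 10 NuRD subunit genes on a log axis, with 1 point per library (blue, wild type; red, labelled IK-KO; 3 libraries each) and a bar at each group mean. CHD3 is the gene whose points lie clearly lower in IK-KO-labelled libraries (mean 12.5 beside 20.7 FPKM), while RBBP4 and CHD4 lie above their wild type points.

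The CHD ATPases moved in opposite directions. CHD3 (ENSG00000170004.17, chr17:7884796-7912760 on GRCh38, plus strand) was the less abundant ATPase of the pair. It was at 21.3, 21.4 and 19.6 FPKM in wild type replicates 1 to 3 and at 13.5, 11.9 and 12.1 FPKM in IK-KO-labelled libraries. All 3 of the latter were below the lowest wild type library. The group means were 20.7 ± 1.02 and 12.5 ± 0.877 FPKM (SD, n = 3 each), a log2 change of -0.69 with a standard error of 0.08 (limma adjusted p = 0.00135). This was the largest change among the 10 members and was larger in size than that of 91.0% of tested genes.

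CHD4 (ENSG00000111642.15; chr12:6570082-6614524, minus strand), the main ATPase of NuRD, was at 109.3, 111.5 and 108.3 FPKM in wild type, against 147, 132 and 133 FPKM in IK-KO-labelled libraries. The groups did not overlap, and replicate 1 was the highest of the latter. Means were 109.7 ± 1.65 and 137 ± 8.25 FPKM (SD, n = 3 each), a log2 change of 0.32 with a standard error of 0.05 (limma adjusted p = 0.00753). CHD4 rose by 27.5 FPKM while CHD3 fell by 8.27 FPKM, so the sum of the pair went from 130.5 to 149.7 FPKM. In bulk RNA, fewer cells that carry a transcript and less of it per cell cannot be told apart. CHD3 and CHD4 kept their calls and directions in all 15 alternative analyses that were run.

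The confidence bounds that the tables give for each value also lay apart for both genes. The highest upper bound of CHD3 in IK-KO-labelled libraries was 15.6 FPKM, beneath the lowest wild type lower bound of 16.3 FPKM. For CHD4 the order was reversed, with 117 FPKM as the highest wild type upper bound and 126 FPKM as the lowest lower bound in IK-KO-labelled libraries. A gene on the opposite strand, NAA38, overlaps CHD3 and was at a mean of 76.7 FPKM in wild type and 69.9 FPKM in IK-KO-labelled libraries (log2 change -0.13, limma adjusted p = 0.447). Whether the tables separate the strands is not given in the sources used here, so fragments of NAA38 in the overlap cannot be told from those of CHD3.

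The promoters of the 3 subunits that were called in every analysis are printed here because IKAROS recognises a GGGAA core. Each runs 5′ to 3′ on the strand of its gene, from 250 bases before to 50 bases after a RefSeq start on GRCh38.p14, in lower case, with each TTCCC, the reverse complement of GGGAA, in capitals. The windows of CHD3 (chr17:7888539-7888838) and CHD4 (chr12:6606402-6606701) are the only ones listed for these genes and lie inside their gene intervals. The regions around the outermost starts of both intervals were thus not scanned. That of RBBP4 (chr1:32650958-32651257) is the first of 2 windows listed.
CHD3: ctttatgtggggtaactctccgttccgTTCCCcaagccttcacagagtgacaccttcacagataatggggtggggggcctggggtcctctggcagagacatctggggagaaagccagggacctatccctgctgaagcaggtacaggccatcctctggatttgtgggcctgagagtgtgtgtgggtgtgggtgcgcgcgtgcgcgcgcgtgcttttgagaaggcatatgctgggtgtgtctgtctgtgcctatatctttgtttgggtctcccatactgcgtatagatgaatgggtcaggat
CHD4: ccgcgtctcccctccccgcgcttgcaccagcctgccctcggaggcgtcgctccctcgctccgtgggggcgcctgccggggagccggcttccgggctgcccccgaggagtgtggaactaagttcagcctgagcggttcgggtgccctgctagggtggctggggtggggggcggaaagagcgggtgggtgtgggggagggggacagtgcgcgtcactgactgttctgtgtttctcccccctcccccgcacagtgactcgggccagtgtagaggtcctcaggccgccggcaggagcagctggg
RBBP4: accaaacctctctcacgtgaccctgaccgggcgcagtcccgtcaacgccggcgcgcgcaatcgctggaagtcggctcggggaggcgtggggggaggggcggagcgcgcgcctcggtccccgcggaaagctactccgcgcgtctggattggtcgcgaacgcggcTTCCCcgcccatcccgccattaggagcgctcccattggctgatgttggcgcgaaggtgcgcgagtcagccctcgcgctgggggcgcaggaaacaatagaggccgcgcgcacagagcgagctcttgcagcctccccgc
The CHD3 and RBBP4 windows each hold 1 TTCCC, and the CHD4 window holds no GGGAA on either strand. GGGAA on either strand was present in 10 of the 14 promoter windows listed for the members and in 7 of the 10 members, beside 65.0% of 35116 RefSeq promoters of the same length. The members without it in a listed window were CHD4, GATAD2B and MBD3, of which 1 was called. The ETS core CGGAAG was found in 4 of the 14 windows, in 3 members (CHD4, GATAD2A and MTA2), beside 19.5% of all promoters. The CCAAT box was in 5 of the 14 windows, in 4 members (GATAD2A, GATAD2B, MBD3 and RBBP4), beside 34.6%. The 2 RBBP4 windows overlap, so a match can count in both. These are letter matches on both strands, with no measurement of binding.

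The MTA scaffold showed small differences. MTA1 (chr14:105419820-105470729, plus strand) was at 72.8, 73.9 and 67.5 FPKM in wild type and 78.6, 79.3 and 73.7 FPKM in IK-KO-labelled libraries. Its groups overlapped, because the lowest of the latter lay just under the highest wild type library, and its log2 change of 0.11 (95% interval -0.02 to 0.25) did not pass (limma adjusted p = 0.226). MTA2 (chr11:62593214-62601865, minus strand), the most abundant MTA, was at 87.9, 94.5 and 88.2 FPKM in wild type, against 97.9, 99.2 and 94.1 FPKM, again with overlap. Its log2 change was 0.11 (95% interval -0.01 to 0.22, limma adjusted p = 0.198). The 50 tested genes nearest to MTA2 had a median log2 change of 0.14. In an alternative fit, the median deviation of these neighbours from their own means was taken off in each library. This left MTA2 at 0.02 (limma adjusted p = 0.827). The step differs from subtracting the median log2 change itself. For MTA1 the same step left 0.06, and leaving out wild type replicate 3 left 0.07 (limma adjusted p = 0.477 and 0.385).

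MTA3 (ENSG00000057935.13; chr2:42494569-42756947, plus strand), the MTA known from germinal centre B cells as a partner of BCL6, was at 42.9, 39.6 and 41.6 FPKM in wild type and 46.2, 50.3 and 50.1 FPKM in IK-KO-labelled libraries. The groups did not overlap. Means were 41.4 ± 1.65 and 48.9 ± 2.32 FPKM (SD, n = 3 each), a log2 change of 0.24 with a standard error of 0.06 (limma adjusted p = 0.0340). This call was not firm. It was lost in 11 of 15 alternatives, where the log2 change stayed between 0.20 and 0.26 and the limma adjusted p reached 0.102. Among these were leaving out any wild type library or replicate 2 or 3 labelled IK-KO (limma adjusted p of 0.0591, 0.0984, 0.0665, 0.102 and 0.0998 in turn).

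Neither MBD subunit passed the test. MBD2 (chr18:54151606-54224669, minus strand), which binds methylated CpG, was at 12.9, 13.5 and 14.1 FPKM in wild type and 14.3, 14.7 and 16.6 FPKM in IK-KO-labelled libraries. The groups did not overlap, but the gap between them was small beside the spread within the IK-KO-labelled group, and the log2 change was 0.16 (95% interval -0.04 to 0.35, limma adjusted p = 0.232). It was 0.09 without replicate 3 labelled IK-KO (limma adjusted p = 0.501). With the neighbours' median deviation taken off in each library it was 0.08 (limma adjusted p = 0.593). The table of replicate 1 labelled IK-KO gives MBD2 bounds of 0 to 31.6 FPKM, far wider than the 3.51% to 20.8% of the value on either side in the other 59 of 60 member values. MBD3 (chr19:1573596-1592865, minus strand), a relative that does not depend on methylation for binding, was at 78.9, 82.0 and 87.6 FPKM in wild type, against 82.6, 83.0 and 75.0 FPKM. The groups overlapped, with the lowest value among the IK-KO-labelled libraries and the highest in wild type, and a log2 change of -0.05 (95% interval -0.20 to 0.10, limma adjusted p = 0.665). A same-strand gene that overlaps MBD3, AC005943.1, was at 10.7 FPKM on average in wild type and 15.01 FPKM in IK-KO-labelled libraries, so the division of their fragments is uncertain.

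Neither GATAD2 bridging subunit passed the test. GATAD2A (chr19:19385826-19508931, plus strand) was at 70.9, 74.3 and 63.1 FPKM in wild type and 74.9, 92.7 and 76.4 FPKM in IK-KO-labelled libraries. Replicate 2 stood highest in both groups, which did not overlap, and the log2 change of 0.22 had a 95% interval from -0.01 to 0.45 (limma adjusted p = 0.168). Without replicate 2 labelled IK-KO the log2 change was 0.12 (limma adjusted p = 0.366). With the median deviation of the 50 nearest tested genes taken off in each library it was 0.13 (limma adjusted p = 0.355). GATAD2B (chr1:153789030-153923360, minus strand) was at 16.7, 15.2 and 15.03 FPKM in wild type, against 18.0, 18.6 and 19.8 FPKM, with no overlap. Its log2 change was 0.25 with a standard error of 0.07 (limma adjusted p = 0.0550). The 50 tested genes nearest to GATAD2B on chromosome 1 had a median log2 change of 0.24. Taking the neighbours' median deviation off in each library left GATAD2B at 0.01 (limma adjusted p = 0.939). INTS3 and ILF2, the next tested genes on the side of lower coordinates, were themselves called higher, with log2 changes of 0.32 and 0.45 (limma adjusted p = 0.0236 and 0.000625). These were chosen after their values were seen.

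RBBP4 (ENSG00000162521.19; chr1:32651142-32686211, plus strand), a WD40 histone chaperone that NuRD shares with the Polycomb, CAF-1 and SIN3 complexes, was the most abundant subunit. It was at 260.5, 290.0 and 270.0 FPKM in wild type and 326, 329.9 and 332 FPKM in IK-KO-labelled libraries. All 3 of the latter were above every wild type library and close to each other. Means were 274 ± 15.1 and 329 ± 3.08 FPKM (SD, n = 3 each), a log2 change of 0.27 with a standard error of 0.05 (limma adjusted p = 0.0101). The call held in all 15 alternatives, and the tables' bounds lay apart, at up to 302 FPKM in wild type and from 313 FPKM in IK-KO-labelled libraries. The 50 nearest tested genes had a median log2 change of 0.06. Among the nearest, YARS1 and ZBTB8A, picked after their values were seen, were called higher, with log2 changes of 0.34 and 0.50 (limma adjusted p = 0.00409 and 0.0270). Annotated copies held little of this signal, since 6 RBBP4 pseudogenes reached at most 0.756 FPKM in any library.

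**Figure D2:**
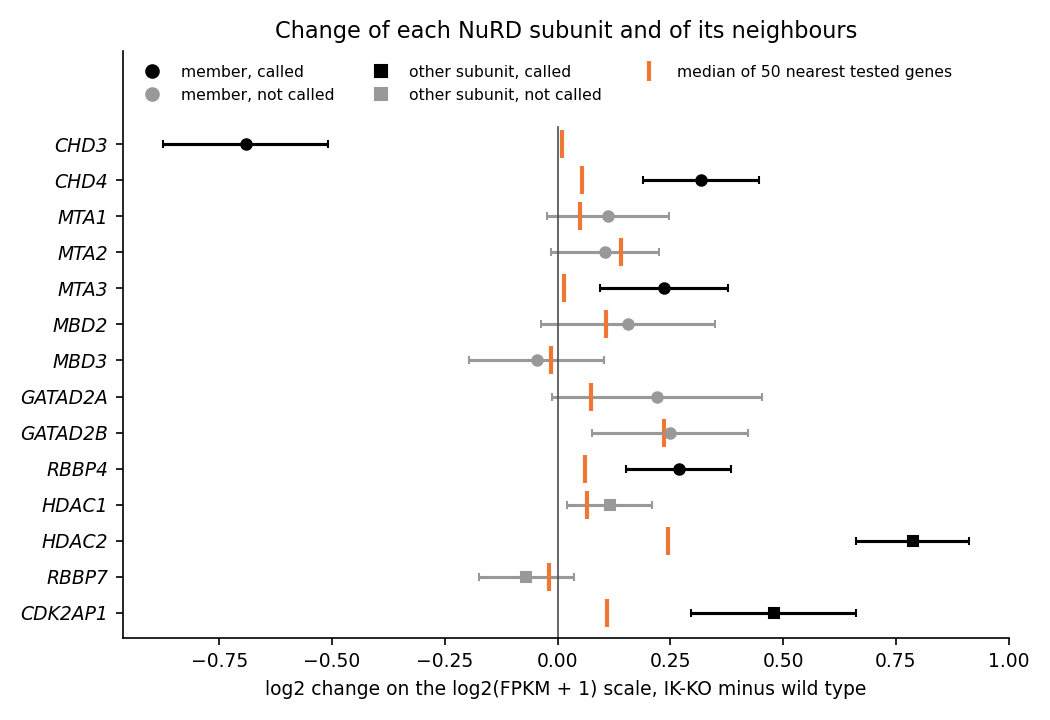
Log2 change on the log2(FPKM + 1) scale, labelled IK-KO minus wild type, of the 10 members (circles) and 4 other tested subunits (squares), with 95% limma intervals (3 libraries per group), black where called, and an orange mark at the median change of the 50 nearest tested genes. GATAD2B sits on its neighbours' median of 0.24, whereas the CHD3 interval lies far from its neighbours' 0.01.

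Beside the members, 4 of 5 further NuRD subunits could be tested. HDAC2 was called higher, at 144, 155 and 139 FPKM in wild type and 257, 253 and 247 FPKM in IK-KO-labelled libraries (log2 change 0.79, limma adjusted p = 0.000162). Its groups stood wide apart. The 50 tested genes nearest to it had a median log2 change of 0.24. With the neighbours' median deviation taken off in each library, 0.55 was left (limma adjusted p = 0.000341). HDAC2-AS2, which overlaps it on the opposite strand, was at a mean of 1.27 FPKM in wild type and 3.37 FPKM in IK-KO-labelled libraries. It was itself called higher (log2 change 0.98, limma adjusted p = 0.0210). MARCKS, the next tested gene at lower coordinates, was at a mean of 1.34 FPKM in wild type and 26.9 FPKM in IK-KO-labelled libraries (log2 change 3.57, limma adjusted p = 4.12e-06). NT5DC1, at higher coordinates, was called lower (log2 change -0.59, limma adjusted p = 0.00358). These were chosen after their values were seen. HDAC1 was at a mean of 147 FPKM in wild type and 159 FPKM in IK-KO-labelled libraries (log2 change 0.12, limma adjusted p = 0.0900). CDK2AP1, a small NuRD subunit that also binds the kinase CDK2, was called higher, from 62.5 ± 4.65 to 87.6 ± 6.34 FPKM (SD, n = 3 each, log2 change 0.48, limma adjusted p = 0.00609). C12orf65 overlaps CDK2AP1 on the opposite strand, at a mean of 23.8 FPKM in wild type and 26.2 FPKM in IK-KO-labelled libraries. Strand handling is not given, so fragments of the overlap cannot be told apart. RBBP7, the close relative of RBBP4, was at 79.0 and 75.2 FPKM (log2 change -0.07, limma adjusted p = 0.327). TXLNG overlaps RBBP7 on the opposite strand, at a mean of 9.66 FPKM in wild type and 9.51 FPKM in IK-KO-labelled libraries. CHD5, the neuronal CHD ATPase, was too low to test, at 0.0519 to 1.27 FPKM in wild type and 0.162 to 0.548 FPKM in IK-KO-labelled libraries.

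FPKM is per length, so the paralogs of each subunit class can be set beside each other in each library. CHD4 made up 83.7%, 83.9% and 84.7% of the CHD3 and CHD4 sum in wild type and 91.6%, 91.7% and 91.7% in IK-KO-labelled libraries, a difference of 7.57 percentage points between groups that did not overlap. CHD3 held the remainder, which went from 15.9% to 8.33%. RBBP4 went from 77.6% to 81.4% of the sum with RBBP7, and HDAC2 from 49.8% to 61.3% of the sum with HDAC1, both without overlap. MBD3 went from 86.0% to 84.0% of the sum with MBD2, without overlap, but this rested largely on replicate 3 labelled IK-KO, at 81.9% beside 85.3% and 85.0%. Without it the difference went from -1.94 to -0.864 percentage points. The MTA shares (35.2%, 44.4% and 20.4% for MTA1, MTA2 and MTA3 in wild type, 34.6%, 43.5% and 21.9% in IK-KO-labelled libraries) and the GATAD2A share (81.6% and 81.1%) overlapped between groups. The MTA3 difference of 1.51 percentage points went to 0.836 without wild type replicate 2 and to 0.979 without replicate 3 labelled IK-KO. The GATAD2A difference of -0.444 changed sign without wild type replicate 2 or replicate 3 labelled IK-KO. These shares carry no test. They are RNA shares and say nothing of how much protein of each kind is in the complex.

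**Figure D3:**
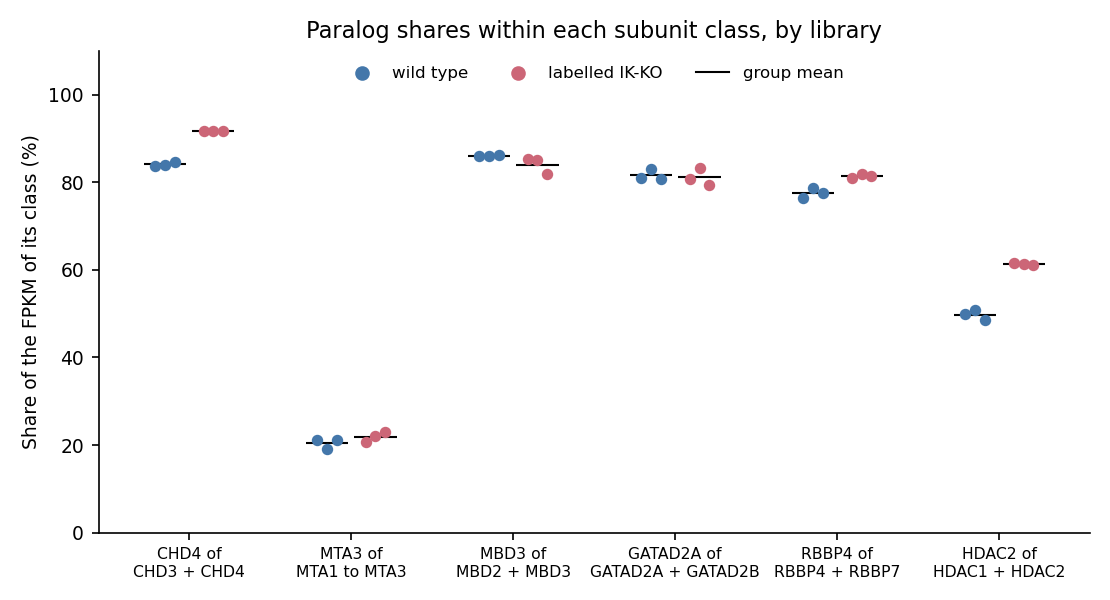
Share of 1 paralog in the summed FPKM of its subunit class, in percent, with 1 point per library (blue, wild type; red, labelled IK-KO; 3 each) and a bar at each group mean. CHD4 goes from 84.1% to 91.7% and HDAC2 from 49.8% to 61.3%, while the MTA3 and GATAD2A points of the groups overlap.

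Summed over a class, the CHD ATPases stood at 1.15 times their wild type level, the MTA subunits at 1.10, the MBD subunits at 0.990, the GATAD2 subunits at 1.18, the RBBP subunits at 1.15 and the deacetylases at 1.41. The order of levels per length in wild type was RBBP4, HDAC1, HDAC2, CHD4, MTA2, MBD3, RBBP7, MTA1, GATAD2A, CDK2AP1, MTA3, CHD3, GATAD2B and MBD2. The ranges of mean ± SD of neighbours in this order met for HDAC1 and HDAC2, from MTA2 to RBBP7 and from MTA1 to CDK2AP1. In the IK-KO-labelled libraries, HDAC2 stood above HDAC1, and CHD3 passed from the twelfth place to the last, below GATAD2B and MBD2. CDK2AP1, GATAD2A, MBD3, MTA1 and RBBP7 followed MTA2, and the ranges of mean ± SD of neighbours in this run met as well.

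**Figure D4:**
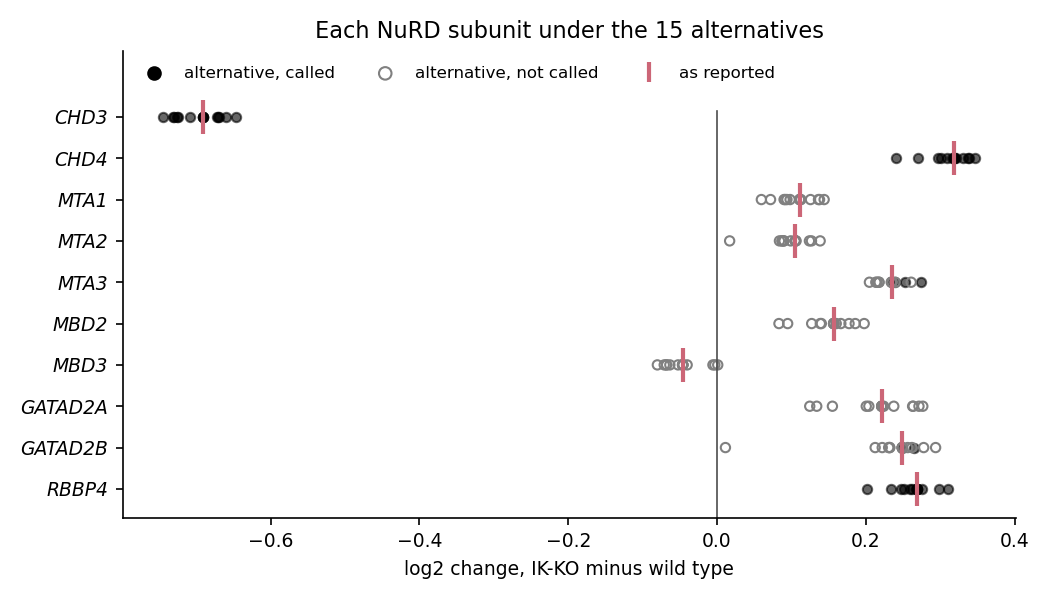
Log2 change of each member under 15 alternative analyses (filled, called; open, not called), labelled IK-KO minus wild type, with a red mark at the reported value. CHD3, CHD4 and RBBP4 are filled throughout, MTA3 is open in 11 of 15, and MBD3 straddles 0.

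Proteins that bind NuRD, relatives of its subunits and complexes that share them were read from the same fit. Beside the list counts here and in the next paragraph, 19.9% of all tested genes were called (10.1% higher and 9.75% lower). The counts are a description only. Of 22 NuRD-binding zinc finger and reader proteins, 17 were tested and 5 were called, all higher (IKZF1, IKZF2, IKZF3, IKZF4 and SATB1), with a median log2 change of 0.16. Of the 5 that were under the mean of 1 FPKM needed for testing, BCL6 was at 1.43 ± 0.257 FPKM in wild type against 0.346 ± 0.0321 FPKM, and ZFPM2 at 1.29 ± 0.0799 against 0.285 ± 0.127 FPKM (SD, n = 3 each). Both were called lower when no filter was applied (limma adjusted p = 0.0149 and 0.0128). Among the tested genes the largest rise was that of IKZF3, which encodes AIOLOS, a relative of IKAROS, at 3.74 ± 0.279 FPKM in wild type and 8.16 ± 0.361 FPKM in IK-KO-labelled libraries (SD, n = 3 each, log2 change 0.95, limma adjusted p = 0.000793). Of 12 CHD and MBD relatives outside NuRD, all tested, 1 was higher and 1 was lower, and the median was -0.02. CHD9, a CHD remodeler outside NuRD, fell from 7.69 ± 0.450 to 2.65 ± 0.0657 FPKM (SD, n = 3 each, log2 change -1.25, limma adjusted p = 0.000292), and CHD2 rose from 19.1 ± 2.68 to 27.8 ± 4.25 FPKM (log2 change 0.52, limma adjusted p = 0.0362). The CHD2 call was lost in 6 of 15 alternatives, with an adjusted p of up to 0.122, among them leaving out wild type replicate 2 or 3 or replicate 1 or 2 labelled IK-KO.

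Of 18 subunits of other HDAC1 and HDAC2 complexes (SIN3, CoREST and MiDAC), all tested, 3 were called, all higher, with a median of 0.14. RCOR2, a CoREST scaffold, rose most, from 1.503 ± 0.316 to 4.35 ± 0.526 FPKM (SD, n = 3 each, log2 change 1.10, limma adjusted p = 0.00307). Of 10 subunits of complexes that share RBBP4, 1 was called. It was EZH2, the Polycomb methyltransferase, with 87.5 ± 1.98 FPKM in wild type and 108 ± 1.94 FPKM in IK-KO-labelled libraries (SD, n = 3 each, log2 change 0.30, limma adjusted p = 0.00436). The other 9 did not pass, and the median was 0.02. The members' own median of 0.19 lay above that of each of these 4 lists but below the 0.30 of the 4 tested further NuRD subunits. No test of these differences was made.

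**Figure D5:**
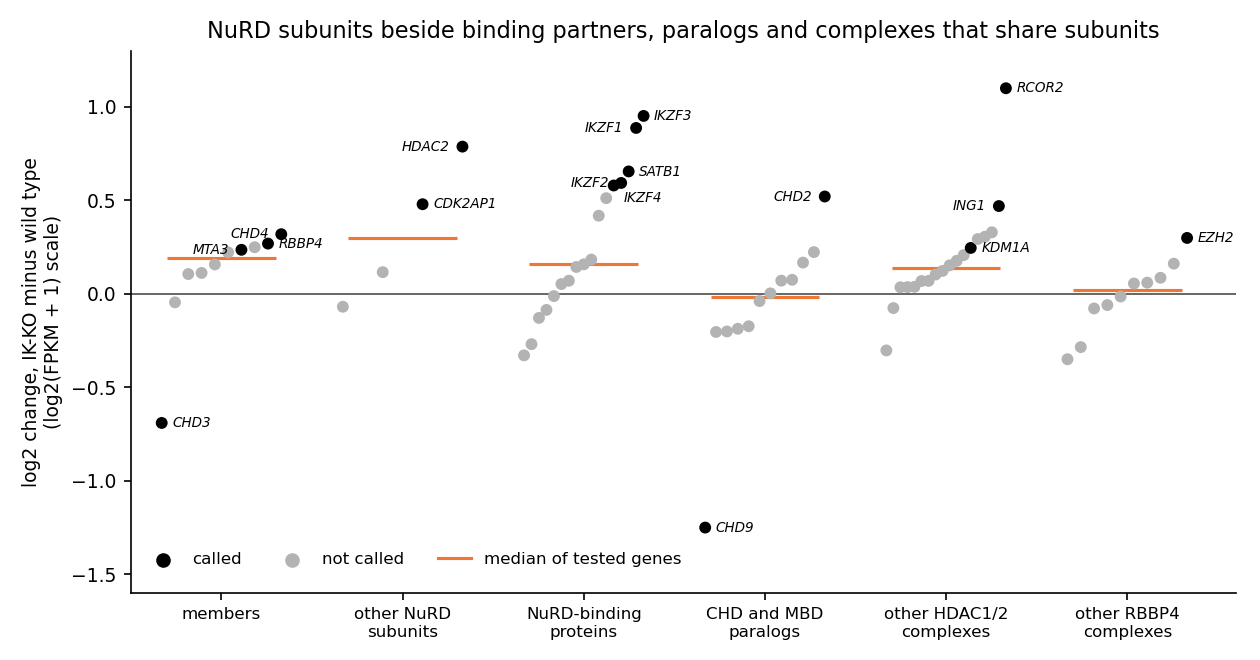
Log2 change on the log2(FPKM + 1) scale, labelled IK-KO minus wild type, of each tested gene in the members and 5 related lists (black, called and named; grey, not called), with an orange bar at the median of each list. The members' median is 0.19 and that of the other NuRD subunits is 0.30. Those of the CHD and MBD relatives and the other RBBP4 complexes are -0.02 and 0.02.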

How the data were processed

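Polyadenylated RNA of 3 wild type and 3 IK-KO libraries was measured. The deposited values are FPKM that the authors scaled for transcript length and depth before deposit, in Cufflinks layout, with confidence bounds and a status per gene. The submitters' processing notes name STAR 2.6.1c and Cufflinks 2.2.1, and coordinates match GRCh38. Strand handling is not given in the sources used here. No counts are given, so depth is judged only from the bounds.

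Rows of 1 identifier were summed, and 29 genes not estimated in a library were left out. log2(FPKM + 1) was tested with limma 3.58.1 in R 4.3.3 (moderated by eBayes along the mean-variance trend, with two-sided p-values adjusted after Benjamini and Hochberg) over 12652 genes with a mean of at least 1 FPKM. For RNA-seq, the study's supplementary methods name a two-sample test and no adjustment. Groups and replicate numbers came from the labels. The 10 members were set by symbol, and members and lists were chosen with earlier results of these data known. Named genes are the members, 5 further subunits, IKZF1, and the largest called rise and fall of 4 further lists. Other genes named (further list members, neighbouring and overlapping genes, single markers) were chosen after their values were seen. Promoters are from RefSeq (GRCh38.p14), matched by symbol for all 10 members.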

Additional observations from a re-analysis of the deposited data

How the results depend on the processing

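Over 15 alternatives (another pseudocount, filters, scalings, no trend, removal of the neighbours' median or of trends with GC content and length, a replicate block, and each library left out in turn), between 1692 and 3044 genes were called and between 3 and 5 of the members, with 3 to 4 when a library was left out. CHD3, CHD4 and RBBP4 kept their calls and directions in all 15. GATAD2B passed with a mean filter of 5 FPKM (limma adjusted p = 0.0474) and after removal of trends with GC content and length (0.0304). MBD3 turned sign without IK-KO replicate 3, to a log2 change of 0.000965 (lowest -0.0802, without wild type replicate 1), and the GATAD2A share turned without wild type replicate 2 (0.274 percentage points) and without IK-KO replicate 3 (0.408; lowest -1.54, without IK-KO replicate 2). The cause was not tested. Over all tested genes, libraries of the same number hardly varied together (correlations of 0.067, 0.025 and 0.0055). A value over all genes cannot show a batch that touches part of them, so pairing remains unknown. A replicate block called 1805 genes and 3 members. Changes that are small beside the spread of 3 libraries are not detectable here.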
